A study of Mus musculus with 9 samples.

Results

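The genes described here are 35 antiviral genes that type I interferon switches on, measured by RNA sequencing in cultured mouse cardiac fibroblasts in which Gata4 or Tbx20 had been knocked down. They were named as a list of gene symbols and found in the count table through their Ensembl identifiers. All 35 were matched among the 38924 genes of the table, and all 35 passed the filter on low counts in each of the 3 comparisons. The list holds 5 sensors of foreign nucleic acid, 3 transcription factors, the negative regulator Usp18 and 26 effectors, of which Cxcl10 and Ccl5 are chemokines.

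The cells were primary cardiac fibroblasts of adult mice aged 8 to 10 weeks on a C57BL/6 background, and every group carried the same RosaCas9-EGFP allele, in which the CAG promoter drives Cas9, the nuclease that guide RNAs direct, and also green fluorescent protein. They were sorted as CD90 positive and as negative for the blood cell marker CD45 and the endothelial marker CD31 after 3 days of culture. Lipid transfection of the guide RNAs followed 6 days later, and RNA was collected 72 hours after that. Control cells received scrambled guides, Gata4 KD cells received guides to Gata4 and Tbx20 KD cells received guides to Tbx20, with 3 libraries in each group. Libraries of a group are told apart by the letters a, b and c. The labels do not say whether they came from separate animals or cultures, so the tests measure the spread between libraries only. All 3 groups carried the Cas9 allele and received guide RNA and lipid. No library without these was among the 9, so the part of transfection in the levels described here was not tested. Total counts ran from 31214828 to 41950397 per library.

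Type I interferons are secreted when a cell detects foreign RNA or DNA. RNA is read by the helicases RIG-I (Ddx58), MDA5 (Ifih1) and LGP2 (Dhx58). Interferon beta (Ifnb1) then acts on the receptor formed by Ifnar1 and Ifnar2, and a complex that includes Stat2 and Irf9 binds the interferon-stimulated response element (ISRE) at the genes it induces. The products block viral entry, translation and replication, and Usp18 closes the loop by blocking the receptor and by removing ISG15 from proteins. Fibroblasts are among the classical producers of interferon beta.

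The guides are shown because they are the RNA that all 3 groups received, scrambled or targeted. Each is printed as its protospacer, 5′ to 3′, from the sequences listed for the study. Of the 6 guides, those to Gata4 and Tbx20 occurred in GENCODE transcripts of their own target and of no other gene, on either strand, and the scrambled guides NTC_sgRNA1 and NTC_sgRNA2 occurred in none.
Gata4_sgRNA1: cagagagtgtgtcaattgtg
Gata4_sgRNA3: gcaggactgggctgtcgaag
Tbx20_sgRNA2: caaattccatgaactgggca
Tbx20_sgRNA3: gagctgctcgccagtaaagg
NTC_sgRNA1: gcgaggtattcggctccgcg
NTC_sgRNA2: gctttcacggaggttcgacg

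Both guided genes were lower in their own knockdown. Gata4 was at 166, 155 and 167 CPM (the count scaled to the size of its library) in control libraries a, b and c, at 54.0, 46.7 and 65.5 CPM in Gata4 KD and at 178, 192 and 198 CPM in Tbx20 KD. Tbx20 was at 1010, 1276 and 720 CPM in control, at 674, 513 and 909 CPM in Gata4 KD and at 320, 426 and 428 CPM in Tbx20 KD. Each target had its 3 lowest libraries in the knockdown that was aimed at it.

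Promoter sequence from RefSeq (build GRCm38.p6) was found for 23 of the 35 genes. In the 250 bases before the transcription start, on either strand, the core of the ISRE, searched as GAAANNGAAA, occurred in 11 of the 23, which is 47.8%, against 3.46% of the 27025 genes of the RefSeq table. The gamma-activated site, known from the response to interferon gamma, searched as TTCNNNGAA, occurred in 3 of the 23 and in 8.13% of all genes. A site of NF-kB, the factor of inflammatory signalling, searched as GGGANNNNCC, occurred in 5 of the 23 and in 19.7% of all genes. A match is a string of letters and does not show that a factor binds.

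The windows below are those of 6 of the genes on which the results turn and of Ifnb1. The 6 are all among the 11 with an ISRE match. Cmpk2, Ifit2 and Irf7 had no ISRE match and are not shown, and no promoter sequence was found for Ccl5. Each window runs from 12 bases before the first match to 12 after the last, on the strand of the gene. Capitals mark every match to the ISRE core or to the NF-kB site, on either strand. No match of either kind overlapped one of the other.
Ifit3 (chr19:34583361-34583428, plus strand, 168 to 101 bases before the start): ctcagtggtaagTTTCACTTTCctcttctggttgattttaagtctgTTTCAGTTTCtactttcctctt
Ifit3b (chr19:34607757-34607824, plus strand, 200 to 133 bases before the start): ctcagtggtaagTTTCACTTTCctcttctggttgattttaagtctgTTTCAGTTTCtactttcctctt
Ifit1 (chr19:34640773-34640825, plus strand, 116 to 64 bases before the start): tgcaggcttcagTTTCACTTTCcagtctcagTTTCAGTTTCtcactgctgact
Isg15 (chr4:156200863-156200908, minus strand, 90 to 45 bases before the start): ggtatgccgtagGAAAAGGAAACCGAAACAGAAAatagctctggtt
Rsad2 (chr12:26456506-26456584, minus strand, 132 to 54 bases before the start): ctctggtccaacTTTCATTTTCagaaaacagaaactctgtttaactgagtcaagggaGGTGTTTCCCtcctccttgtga
Cxcl10 (chr5:92348971-92349114, minus strand, 225 to 82 bases before the start): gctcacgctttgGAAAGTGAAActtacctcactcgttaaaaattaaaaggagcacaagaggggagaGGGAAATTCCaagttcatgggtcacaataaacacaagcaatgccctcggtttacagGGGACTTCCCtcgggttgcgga
Ifnb1 (chr4:88522866-88522922, minus strand, 128 to 72 bases before the start): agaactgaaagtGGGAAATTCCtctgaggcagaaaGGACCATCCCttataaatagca

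The windows of Ifit3 and Ifit3b were identical at 68 of 68 bases. That of Isg15 held 3 matches to the ISRE core that overlap each other, and those of Ifit1, Ifit3 and Ifit3b held 2 each. Cxcl10 had 1 ISRE match and 2 NF-kB matches, and Ifnb1 had 2 NF-kB matches and no ISRE match. Cxcl10 and Ifnb1 shared the same 10-letter NF-kB match, gggaaattcc, which occurred in 0.115% of all genes. That string was picked because both hold it, so its share is not a test. The NF-kB site as searched occurred in 19.7% of all genes.

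The level of these genes in control cells was high. The 35 genes took between 1.16% and 1.53% of all counts in each of the 9 libraries. To compare genes with each other, CPM was divided by exon length in kilobases (kb), and 20543 genes were ranked by their mean in the 3 control libraries. The median of the 35 genes was 77.8 CPM per kb against 1.47 over all ranked genes. Their median percentile was 97.1, with a range from 81.6 to 99.9, and 29 of the 35 lay in the top 10% of genes, 24 in the top 5% and 7 in the top 1%.

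Ifit3, whose protein binds foreign RNA together with Ifit1, stood first in control cells, at 1070, 1215 and 1132 CPM per kb in libraries a, b and c. Isg15, a ubiquitin-like protein that is joined to other proteins, followed at 858, 803 and 928 CPM per kb. Bst2 (tetherin), which holds budding virus at the cell surface, was at 497, 494 and 451 CPM per kb. For comparison Col1a1, the fibrillar collagen typical of fibroblasts, was at a mean of 610 CPM per kb.

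Ifit1 came next at 328, 420.1 and 296 CPM per kb, followed by Ifit3b at 243, 309 and 249 CPM per kb. Irf7 had a mean of 246 ± 4.24 CPM per kb (SD, n = 3) and Ccl5 one of 210 ± 15.5 CPM per kb (SD, n = 3). Control b was the highest library for Ifit1 and Ifit3b. At the low end were Herc6 at 17.5, 24.9 and 16.1 CPM per kb, Ifi27 at 20.5, 13.7 and 23.2 CPM per kb and Oas3 at 12.1, 13.6 and 13.8 CPM per kb. Herc6 joins ISG15 to its targets in the mouse, and Oas3 makes the oligoadenylates that activate RNase L. Neighbours in this order mostly shared their range: in 9 of 34 neighbouring pairs every control library of the higher gene lay above every control library of the lower.

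**Figure D1:**
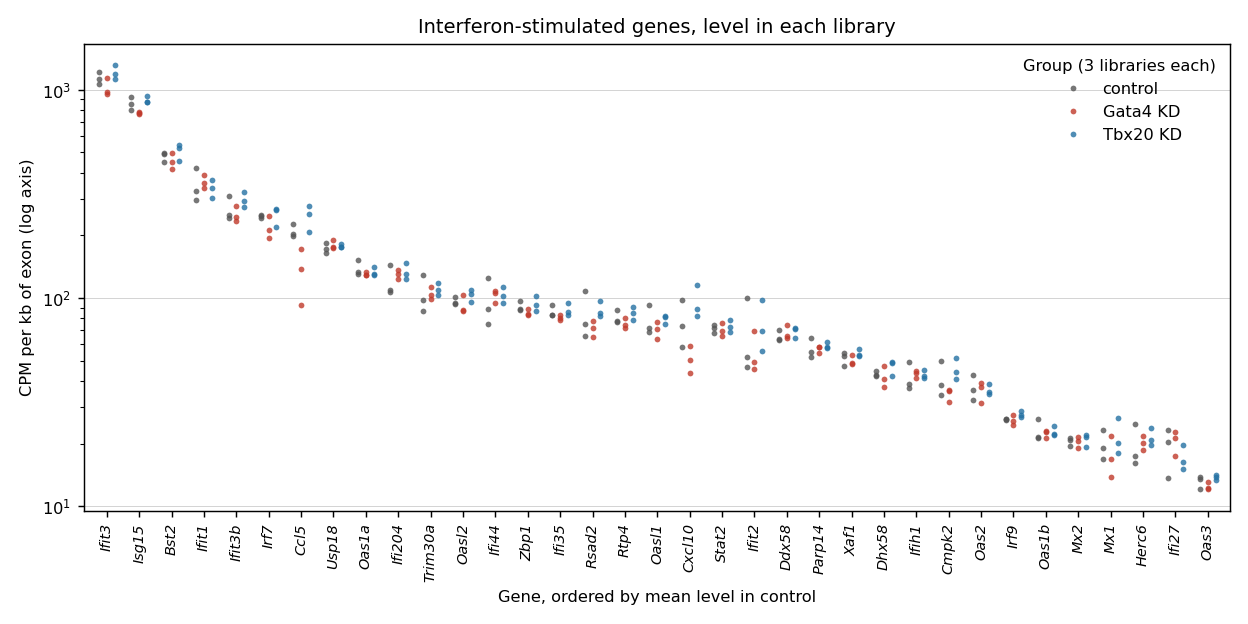
Level of the 35 genes in each of the 9 libraries, in CPM per kb of exon on a log axis, with the genes ordered by their mean in control and 3 points for each group. The genes run from Ifit3, at a control mean of 1139, down to Oas3, at 13.2, and the clearest step down in Gata4 KD is that of Ccl5 and Cxcl10.

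Several of these levels depend on how reads were divided between near-identical copies. Of the 75-base windows of Oas1a 47.6% also occurred in another gene, its copy Oas1g. Ifit3 shared 41.1% of its windows and Ifit3b 35.7%, with each other, and their counts are therefore uncertain. Oas1b and Mx2 are annotated as polymorphic pseudogenes, which are genes that are intact in some mouse strains and disrupted in others. Their transcripts were counted here at 45.8 ± 5.52 CPM and 74.1 ± 3.52 CPM (SD, n = 3) in control.

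The signal above these genes was less uniform. Of 16 interferon genes matched, 10 had no count in any of the 9 libraries, which does not show that their RNA was absent. The highest count of any was 104, for Ifnb1 in control b. The interferon alpha gene Ifna4 had 5, 16 and 19 counts in control, 4, 7 and 3 in Gata4 KD and 10, 14 and 10 in Tbx20 KD. Ifnb1 itself reached the 58.6th percentile of control levels, at 3.14 CPM per kb. The receptor chains were at 11.1 CPM per kb (Ifnar1) and 15.0 CPM per kb (Ifnar2).

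Markers placed the libraries with fibroblasts. The 9 fibroblast markers had a median percentile of 97.1 in control, against 43.2 for 14 leukocyte markers, 41.0 for 7 endothelial, 37.3 for 6 epicardial and mesothelial and 13.0 for 7 cardiomyocyte markers. The T cell gene Cd3e and the natural killer cell gene Klrb1c had no count in any library. They were the only 2 of the 14 leukocyte markers without a count, and 10 passed the filter on low counts. Lyz2 was the highest of the 14 in control, at a mean of 19.1 CPM, followed by Csf1r at 10.0 CPM. In Gata4 KD against control, 8 of the 10 tested had a log2 fold change below 0 and 2 above, beside 54.1% of all genes below 0. Ccl5, which lymphocytes and macrophages also make in quantity, was read in the same bulk RNA, where more cells of a type and more RNA per cell cannot be told apart. The 14 leukocyte markers together made 46.1 to 59.5 CPM in control, 34.7 to 51.0 in Gata4 KD and 47.9 to 67.8 in Tbx20 KD, and their part in the results on Ccl5 was not tested.

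The sensors were at closely similar levels in all groups. Ddx58 was at 441, 496 and 448 CPM in control, 452, 463 and 521 CPM in Gata4 KD and 454, 506 and 501 CPM in Tbx20 KD. Ifih1 was at 315, 402 and 303 CPM in control, 336, 365 and 356 CPM in Gata4 KD and 339, 370 and 346 CPM in Tbx20 KD. For both, control b was the highest control library and the groups overlapped.

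Dhx58, the helicase that modulates the other pair, was at 138, 141 and 146 CPM in control, 134, 123 and 154 CPM in Gata4 KD and 138, 161 and 160 CPM in Tbx20 KD. The remaining sensors, the Z-form nucleic acid receptor Zbp1 and the DNA sensor Ifi204, also overlapped between groups. Over the 5 sensors, log2 fold changes ran from -0.09 to 0.12 in Gata4 KD against control and from 0.06 to 0.17 in Tbx20 KD against control.

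Among the transcription factors, Irf7, which amplifies interferon production, was at 931, 946 and 914 CPM in control, 805, 737 and 934 CPM in Gata4 KD and 832, 1013 and 999 CPM in Tbx20 KD. Gata4 KD a and b were its lowest libraries, but Gata4 KD c lay among the controls. Between Gata4 KD and control it differed by -0.17 on the log2 scale (SE 0.10, adjusted p 0.712, edgeR quasi-likelihood), which did not pass the threshold of 0.05.

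Irf9, the DNA-binding part of the interferon complex, was at 142, 142 and 140 CPM in control, 138, 132 and 147 CPM in Gata4 KD and 144, 154 and 148 CPM in Tbx20 KD. It was the member with the smallest spread between libraries, and the controls lay just below all 3 Tbx20 KD libraries. Stat2, its partner, was at 404, 428 and 441 CPM in control, 390, 414 and 451 CPM in Gata4 KD and 406, 463 and 431 CPM in Tbx20 KD, with full overlap.

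Usp18 was at 481, 461 and 515 CPM in control, 489, 527 and 484 CPM in Gata4 KD and 489, 505 and 493 CPM in Tbx20 KD. The groups overlapped throughout. The 95% interval of its log2 fold change was -0.14 to 0.23 in Gata4 KD and -0.12 to 0.20 in Tbx20 KD, both against control.

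In Gata4 KD against control, a comparison that asks which genes depend on Gata4, none of the 35 genes passed an adjusted p of 0.05 in edgeR's quasi-likelihood test, where 0.38% of the 14468 genes tested passed. At an unadjusted p under 0.05, 2 of the 35 were lower and 0 higher, beside 4.64% of all genes lower. DESeq2 called 1 of the 35, Ccl5. The groups did not overlap, with Gata4 KD lower, at 2 of the 35 (Isg15 and Ccl5), beside 7.62% of all genes. The median log2 fold change of the 35 was -0.06, against -0.02 over all genes tested, and 26 of the 35 were below 0 against 54.1% of all genes.

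Those with an unadjusted p under 0.05 were the chemokines, which attract T cells and natural killer cells. Ccl5 (chr11:83525778-83530518) was at 219, 194 and 191 CPM in control and at 133, 89.4 and 164 CPM in Gata4 KD. Every Gata4 KD library lay below every control, with Gata4 KD b lowest. On the log2 scale it was -0.65 from control (SE 0.19, adjusted p 0.327, edgeR quasi-likelihood).

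Cxcl10 (chr5:92346638-92348889) was at 131, 221 and 165 CPM in control and at 98.5, 114 and 133 CPM in Gata4 KD. Control a and Gata4 KD c met at the border, so the groups overlapped. On the log2 scale it stood at -0.58 from control (SE 0.19, adjusted p 0.382, edgeR quasi-likelihood), and -0.36 without control b, its highest control. Neither chemokine's difference exceeded the threshold over all genes.

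Ifit2, an RNA-binding inhibitor of translation, had the third lowest log2 fold change, -0.28 (SE 0.29), but its sign turned to 0.15 without control b. It was at 204, 394 and 184 CPM in control and 179, 195 and 272 CPM in Gata4 KD. At the other end stood Ifi204 at 0.12 (SE 0.12), Ifi44 at 0.10 (SE 0.17) and Ifi27 at 0.10 (SE 0.19), each within 1 SE of 0. Ifi44 was -0.05 without control c and Ifi27 was -0.09 without control b.

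In Tbx20 KD against control, the same question for Tbx20, none of the 35 genes passed in edgeR's quasi-likelihood test, where 0.00687% of the 14547 genes tested did, which is 1 gene. Tbx20 itself did not pass there (log2 fold change -1.35, SE 0.20, adjusted p 0.748, edgeR quasi-likelihood). The lack of a call therefore does not show that the 35 genes were unchanged. At an unadjusted p under 0.05 there was also none, beside 2.69% of all genes in either direction, and DESeq2 called 0 of the 35. The groups did not overlap, with Tbx20 KD higher, at 1 of the 35, Irf9, beside 2.8% of all genes. The median log2 fold change was 0.08 against 0.00 over all genes, and 31 of the 35 were above 0, beside 49.3% of all genes.

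The highest values here belonged to Cxcl10 at 0.33 (SE 0.20), Ccl5 at 0.24 (SE 0.11) and Ifit2 at 0.17 (SE 0.31). Cxcl10 was at 186, 261 and 200 CPM in Tbx20 KD, and Ccl5 was at 199, 265 and 243 CPM. For Cxcl10 and Ccl5 a control library lay among those of Tbx20 KD, and for Ifit2 control b lay above all of them and the other controls below. The lowest were Ifi27 at -0.15 (SE 0.18), Ifit1 at -0.04 (SE 0.14) and Oas1a at -0.04 (SE 0.08), and each of these was above 0 without 1 of the libraries, control b or Tbx20 KD a for Ifit1 and control c for the other two. Ifi27 is a small mitochondrial and nuclear envelope protein, and Oas1a is an oligoadenylate synthase.

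Gata4 KD and Tbx20 KD were also set against each other, which uses no control library. In edgeR's quasi-likelihood test 1 of the 35 genes differed, Cxcl10, which was lower in Gata4 KD, where 1.44% of the 14477 genes tested differed. At an unadjusted p under 0.05, 9 of the 35 were lower in Gata4 KD and 0 higher, beside 7.52% of all genes lower. The groups did not overlap, with Gata4 KD lower, at 6 of the 35, beside 10.8% of all genes. The median log2 fold change of the 35 was -0.13 against -0.01 over all genes, and 31 of the 35 were below 0 against 51.7%.

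Cxcl10 was at 98.5, 114 and 133 CPM in Gata4 KD and at 186, 261 and 200 CPM in Tbx20 KD. The highest Gata4 KD library was well below the lowest Tbx20 KD library. The log2 fold change was -0.91 (SE 0.15, 95% interval -1.26 to -0.56, adjusted p 0.0404, edgeR quasi-likelihood), so that Cxcl10 was 46.6% lower in Gata4 KD. The call was lost without Gata4 KD a (adjusted p 0.165) or b (0.134) and without Tbx20 KD b (0.124) or c (0.144), and also with all 9 libraries in one fit (0.059).

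Ccl5, at 133, 89.4 and 164 CPM in Gata4 KD and at 199, 265 and 243 CPM in Tbx20 KD, also kept the knockdowns apart. Its log2 fold change of -0.87 (SE 0.21) was close in size to that of Cxcl10, but it varied more and missed the threshold (adjusted p 0.104, edgeR quasi-likelihood). It passed without Gata4 KD c (adjusted p 0.0197), with no filter on low counts (0.0415) and in DESeq2 (0.000367).

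A pair of neighbours on chromosome 12 did not overlap between the knockdowns either. Rsad2 (viperin), which makes a chain-terminating nucleotide, lies at chr12:26442746-26456452 on the minus strand, and Cmpk2, a kinase that supplies its substrate, at chr12:26469204-26479837 on the plus strand. Cmpk2 was at 132, 149 and 151 CPM in Gata4 KD and 171, 214 and 184 CPM in Tbx20 KD, and Rsad2 was at 281, 337 and 310 CPM and 367, 420 and 354 CPM. Both were lower in every Gata4 KD library, with log2 fold changes of -0.40 (SE 0.09) and -0.30 (SE 0.09), and neither passed (adjusted p 0.0989 and 0.163, edgeR quasi-likelihood).

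Isg15 was at 593, 580 and 587 CPM in Gata4 KD, 657, 705 and 663 CPM in Tbx20 KD and 649, 607 and 701 CPM in control. All 3 Gata4 KD libraries were below all 6 others, by a small margin in control b. The log2 fold change was -0.20 (SE 0.05, adjusted p 0.109, edgeR quasi-likelihood) against Tbx20 KD and -0.15 (SE 0.08, adjusted p 0.687) against control.

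The other genes with an unadjusted p under 0.05 were Ifit3, Ifit3b, Oas3 and Rtp4, with log2 fold changes from -0.25 to -0.15. Ifit3 was at 1695, 1659 and 1983 CPM in Gata4 KD and 1957, 2289 and 2079 CPM in Tbx20 KD. Only Gata4 KD c reached into the range of Tbx20 KD. Ifit1, of the same family and on the same stretch of chromosome 19, was at 892, 951 and 1033 CPM in Gata4 KD and 805, 976 and 899 CPM in Tbx20 KD, with a log2 fold change of 0.10 (SE 0.09).

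Ifit2 had the third lowest log2 fold change of this comparison, -0.44 (SE 0.23), with 179, 195 and 272 CPM in Gata4 KD against 218, 386 and 274 CPM in Tbx20 KD. The highest were Ifi27 at 0.27 (SE 0.13), Ifit1 at 0.10 (SE 0.09) and Usp18 at 0.01 (SE 0.05). Usp18 turned to -0.01 when library size alone was used for scaling.

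**Figure D2:**
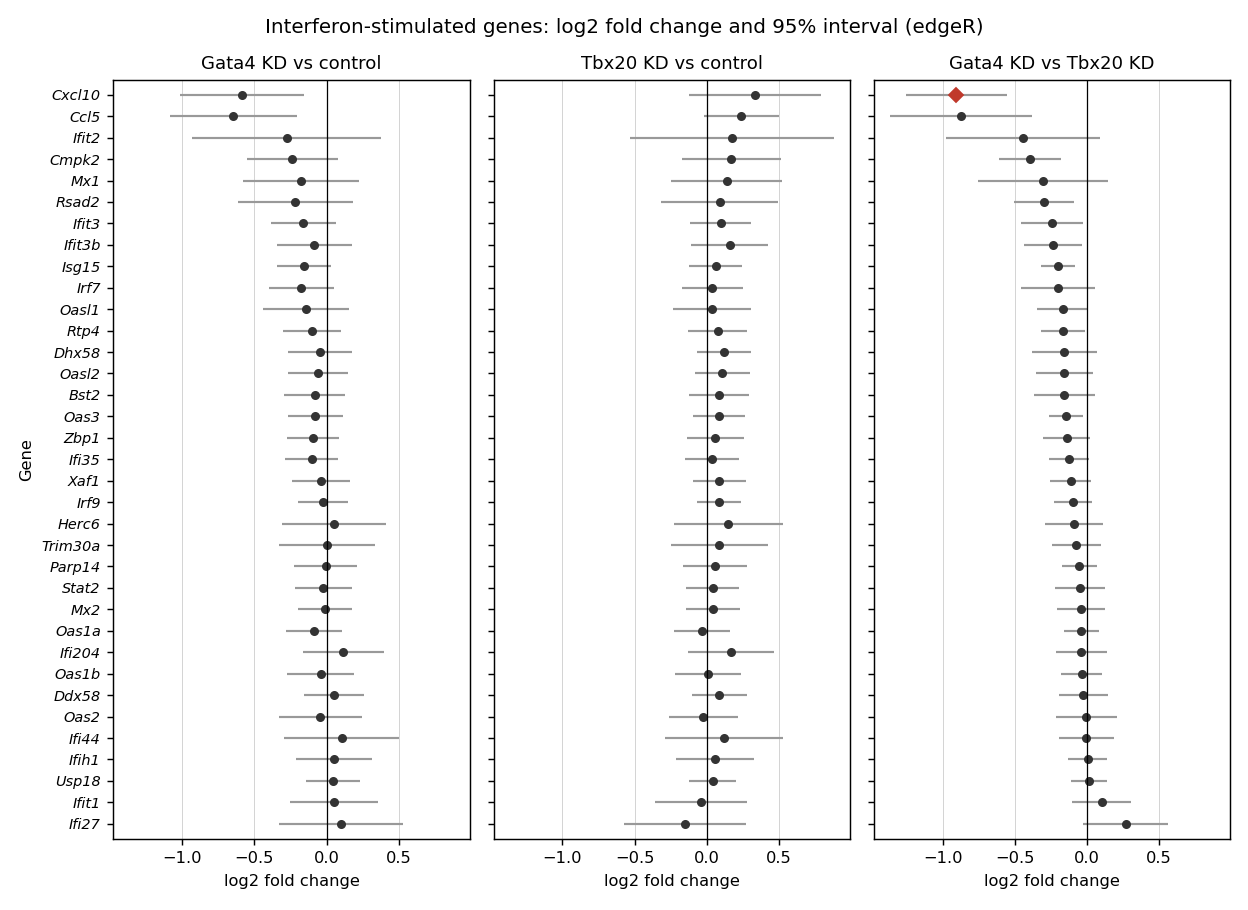
Log2 fold change of each of the 35 genes (points) with its 95% interval (lines) in the 3 comparisons, genes ordered by the comparison of Gata4 KD with Tbx20 KD. The diamond marks the only value with an adjusted p under 0.05, Cxcl10 at -0.91, and in the panels against control the points furthest from 0 are again those of Cxcl10 and Ccl5.

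By role, the chemokines stood apart from the rest in size. Their values were -0.58 and -0.65 in Gata4 KD against control, 0.33 and 0.24 in Tbx20 KD against control and -0.91 and -0.87 between the knockdowns. In that last comparison the 6 genes of the oligoadenylate synthase family ran from -0.17 to -0.01 and the 5 sensors from -0.16 to 0.00. The 3 transcription factors ran from -0.20 to -0.05 and the Mx GTPases from -0.30 to -0.04. The viperin pair was at -0.40 and -0.30, and the IFIT family ran from -0.44 (Ifit2) to 0.10 (Ifit1). The first 2 comparisons share their control libraries, and each comparison shares libraries with the others, so the values are given side by side and not as agreement.

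Of the genes upstream, Ifnb1 was lower in Gata4 KD than in Tbx20 KD, as Cxcl10 was. It was at 1.44, 2.91 and 2.71 CPM in control, at 0.756, 0.853 and 0.968 CPM in Gata4 KD and at 1.75, 2.19 and 2.16 CPM in Tbx20 KD. All 3 Gata4 KD libraries were below all 6 others, on 24 to 35 counts per library. Against Tbx20 KD it differed by -1.23 on the log2 scale (SE 0.19, adjusted p 0.0303, edgeR quasi-likelihood), a level 57.5% lower in Gata4 KD.

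The call of Ifnb1 was lost without Gata4 KD a (adjusted p 0.143) or b (0.108), without Tbx20 KD a (0.0512), b (0.151) or c (0.163) and with all 9 libraries in one fit (0.0692). Against control the log2 fold change was -1.45 (SE 0.31, adjusted p 0.128, edgeR quasi-likelihood), which did not pass. There it passed in 3 of 13 alternatives, DESeq2 (adjusted p 0.00581), all 9 libraries in one fit (0.0402) and, at the threshold itself, no filter on low counts. In Tbx20 KD against control Ifnb1 was at -0.20 (SE 0.27, adjusted p 0.9997).

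**Figure D3:**
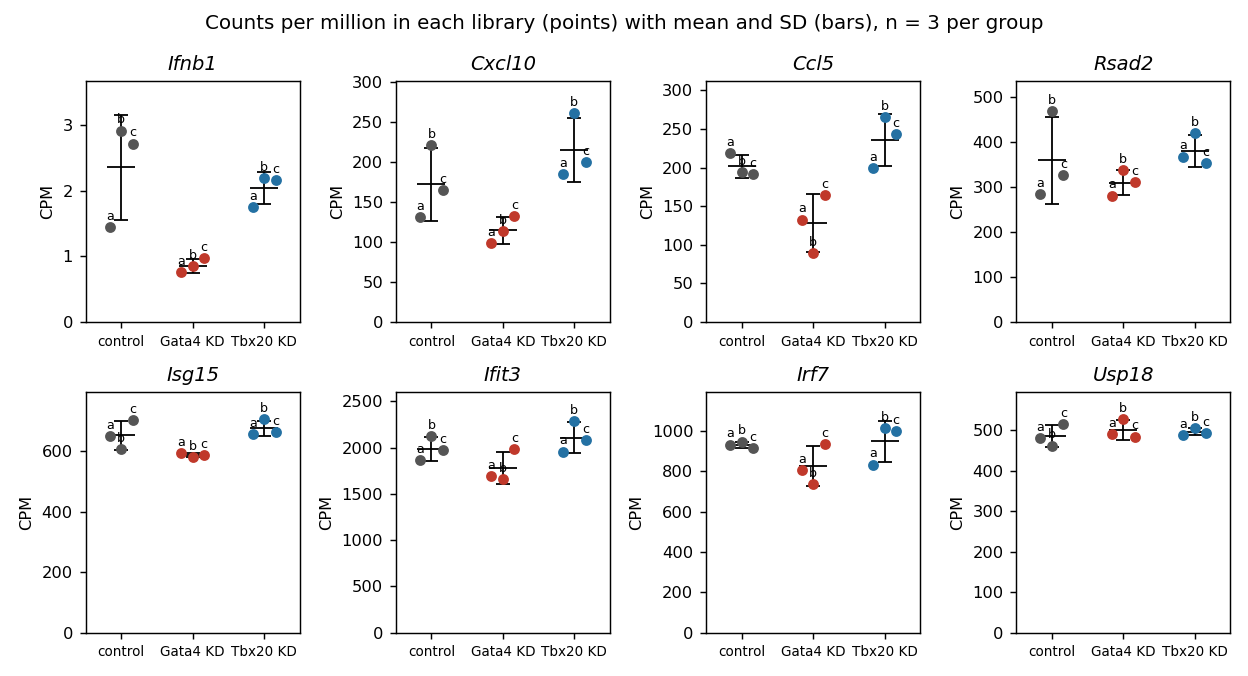
CPM of 8 genes in each library (points, with the library letter), with the mean and SD of the 3 libraries of a group (bars), on axes that start at 0. Ifnb1, Ccl5 and, by a small margin, Isg15 have all Gata4 KD points below all others, Cxcl10 nearly so, and Usp18 is level across the 3 groups.

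The receptor chains overlapped between all groups. Ifnar1 was between 62.2 and 71.1 CPM, and Ifnar2 between 45.6 and 60.4 CPM, in all 9 libraries. The log2 fold change of Ifnar1 was 0.04 (SE 0.08) in Gata4 KD and 0.06 (SE 0.08) in Tbx20 KD, and that of Ifnar2 was 0.00 (SE 0.10) and 0.15 (SE 0.10), each against control.

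A wider list of the pathway, with ligands, receptors, kinases, sensors, inhibitors and other induced genes, matched 86 of its 90 symbols. Of its 68 tested genes 0 passed in Gata4 KD against control in edgeR's quasi-likelihood test, where 0.38% of all genes did. At an unadjusted p under 0.05, 5 were lower and 1 higher, beside 4.64% of all genes lower. Of 69 tested, 0 passed in Tbx20 KD against control, beside 0.00687% of all genes. There 0 were lower and 1 higher at an unadjusted p under 0.05, beside 2.69% of all genes in either direction. Between the knockdowns 1 of 68 passed, Ifnb1, beside 1.44% of all genes. At an unadjusted p under 0.05, 11 were lower and 2 higher, beside 7.52% of all genes lower. The median log2 fold changes were -0.03, 0.06 and -0.10 in the 3 comparisons.

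A list of MHC class I genes and interferon-inducible GTPases stood as high in control as the 35 genes, with a median percentile of 97.2. Of its 24 tested genes 1 passed in Gata4 KD against control, beside 0.38% of all genes, and against Tbx20 KD, beside 1.44%. It was the GTPase Tgtp1, which has a near-identical copy, Tgtp2, so that its counts are uncertain. Tgtp1 was at 161, 187 and 173 CPM in control, 283, 271 and 312 CPM in Gata4 KD and 182, 220 and 169 CPM in Tbx20 KD. All 3 Gata4 KD libraries were above the other 6, the opposite side from Cxcl10 and Ccl5. In Gata4 KD its log2 fold change reached 0.74 (SE 0.09, adjusted p 0.0245) against control and 0.60 (SE 0.10, adjusted p 0.043) against Tbx20 KD, both in edgeR's quasi-likelihood test. The copy Tgtp2 was at 451, 560 and 407 CPM in control, 462, 418 and 570 CPM in Gata4 KD and 504, 634 and 552 CPM in Tbx20 KD. Its groups overlapped, and the division of reads between the copies was not tested.

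The call of Tgtp1 against control was lost without control a (adjusted p 0.164) or c (0.0855) and without Gata4 KD a (0.167) or b (0.088). Of the other genes of that list 0 passed in any comparison. In Tbx20 KD against control 23 of its 24 genes were above 0, beside 49.3% of all genes, with a median of 0.13.

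NF-kB target genes were read beside the chemokines, since Cxcl10, Ccl5 and Ifnb1 are induced by that factor too. Of 18 tested genes 0 passed in either comparison with control, where 0.38% (Gata4 KD) and 0.00687% (Tbx20 KD) of all genes did. At an unadjusted p under 0.05, 5 were higher and 2 lower in Gata4 KD, beside 564 and 671 of the 14468 genes tested. In Tbx20 KD 0 were higher and 0 lower, beside 2.69% of all genes in either direction. In Gata4 KD against control Cxcl5 passed in 4 of 13 alternatives, Vcam1 in 5 and Il6 in 2, and DESeq2 was among these for each. Between the knockdowns 3 passed in edgeR's quasi-likelihood test, beside 1.44% of all genes. The neutrophil chemokine Cxcl5 (1.34, SE 0.15, adjusted p 0.0115) and the cytokine Il6 (0.42, SE 0.07, adjusted p 0.0405) were higher in Gata4 KD, and the adhesion molecule Vcam1 (-0.55, SE 0.08, adjusted p 0.0258) was lower. The list thus held genes on both sides, with a median of 0.02.

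Within Tbx20 KD and within Gata4 KD the 35 genes varied between libraries in a shared way. In Tbx20 KD, library b was the highest of the 3 for 33 of the 35, where it was highest for 22.6% of 6382 genes of like level, and library a was lowest for 29, where it was lowest for 35.3%. In Gata4 KD, library c was highest for 27 (36.1% of genes of like level) and library a lowest for 22 (19.5%). In control the top was divided. Library b was highest for 20 (46.0%) and lowest for 7 (41.3%), and library c was highest for 13 (34.6%).

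The mean log2 CPM of the 35 genes, which is an average over genes and not a replicate of anything, was 7.96, 8.14 and 8.02 in control a, b and c. It was 7.89, 7.94 and 8.05 in Gata4 KD and 8.03, 8.23 and 8.10 in Tbx20 KD. Gata4 KD c thus lay above control a and c, and the groups overlapped. The summed level of the MHC class I and GTPase list was likewise highest in control b, Gata4 KD c and Tbx20 KD b within their groups, at 12771, 12713 and 13541.5 CPM.

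The library with the highest level of the 35 genes in Gata4 KD, c, differed from a and b in the sums of other lists as well. A sum follows the highest genes of its list and does not describe each gene. The 9 fibroblast markers summed to 14225 CPM in Gata4 KD c and to 11331 and 10061 CPM in a and b, against 13809 to 15413 CPM in control. The NF-kB list summed to 4232 CPM in c and to 4947 and 5218 CPM in a and b, against 4010 to 4256 CPM in control. In Gata4 KD a, b and c, Col3a1 was at 1848, 1607 and 3205 CPM, but Pdgfra was at 563, 512 and 668 CPM and Thy1 at 101, 82.6 and 90.8 CPM. Ptgs2 was at 643, 1071 and 325 CPM and Csf1 at 2694, 2549 and 2285 CPM, but Vcam1 was at 564, 501 and 578 CPM. The part of these lists in the differences of Cxcl10, Ccl5 and Ifnb1 was not tested.

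The spread was largest for Ifit2, whose SD of log2 CPM within groups was 0.46, at the 99.4th percentile of genes of like level. Cxcl10 (0.29), Ccl5 (0.29), Mx1 (0.29) and Ifi27 (0.28) followed. The smallest spreads were those of Irf9 (0.05), Usp18 (0.06) and Isg15 (0.07). The median over the 35 genes was 0.12, against 0.11 for genes of like level, and 21 of the 35 were above that median. Mx1, of the Mx GTPase family, was at 64.0, 88.3 and 72.2 CPM in control, 52.5, 63.6 and 82.7 CPM in Gata4 KD and 68.0, 101 and 76.6 CPM in Tbx20 KD.

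Control b was at the top for some members and at the bottom for others. Ifi44, an induced cytoplasmic protein, was at 542, 766 and 458 CPM in control a, b and c, and Rsad2 was at 284, 468 and 327 CPM. Ifi27 took the opposite course, at 30.02, 20.1 and 34.1 CPM. Within Gata4 KD and Tbx20 KD as well, Ifi27 was low in the libraries where most of the other genes were high.

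**Figure D4:**
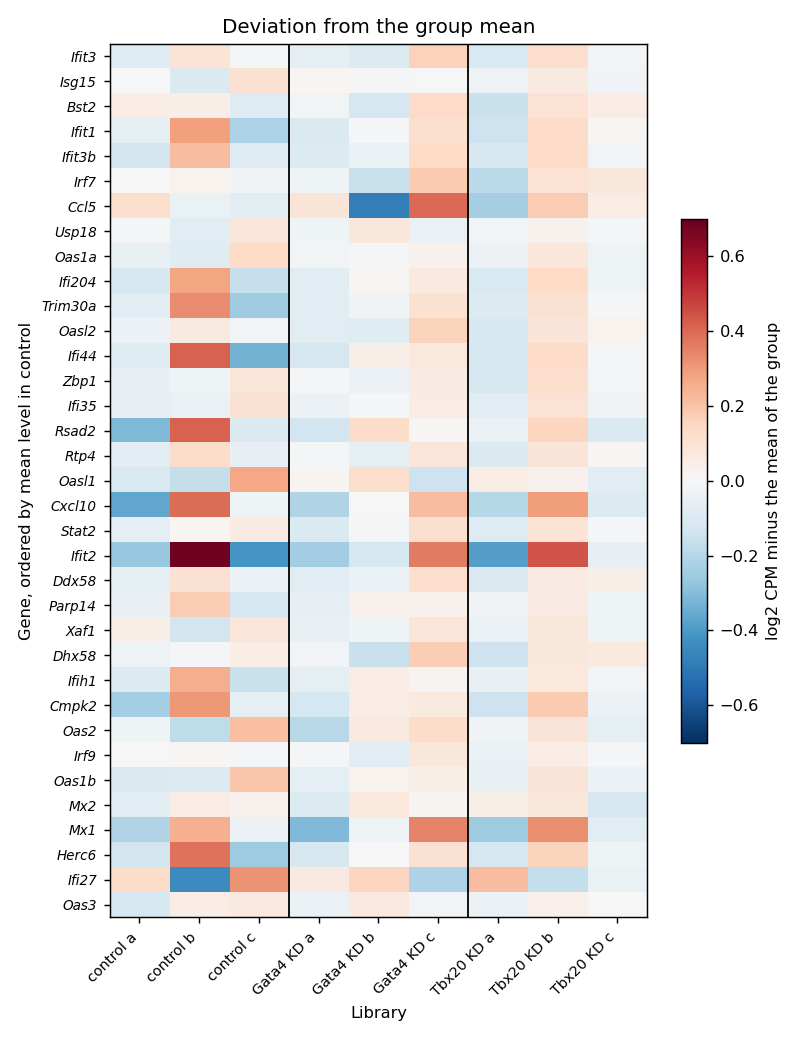
Deviation of each of the 35 genes (rows, ordered by control level) from the mean of its group in each of the 9 libraries, as log2 CPM, red above and blue below the mean. Tbx20 KD b is above its group mean for nearly all genes and Tbx20 KD a below, and Ifit2 and Ifi27 move in opposite directions in control b.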

How the data were processed

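RNA of 9 libraries was read as 75-base single-end reads. The authors trimmed reads by quality and estimated expected counts per gene with RSEM and Bowtie2. Their methods name GRCm38, the labels name mm9, and the deposited expected counts carry no coordinates. Symbols, positions and exon lengths came from GENCODE M21 (GRCm38), and promoters from RefSeq.

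The 35 genes, the other lists, the tests and the rule for naming genes were chosen with earlier results of these data known. Each comparison was fitted on its 6 libraries over the whole table with edgeR 4.0.16 in R 4.3.3 (filterByExpr, TMM factors, glmQLFit, glmQLFTest), with Benjamini-Hochberg adjustment over all genes tested and a threshold of 0.05. CPM used TMM factors over the 9 libraries, and log2 CPM a prior count of 2. An exact permutation test of 3 against 3 cannot go below 0.1 and was not used. The procedure was tested on simulated counts. No pair of libraries agreed within counting noise.

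Named were the sensors, transcription factors and Usp18, the 5 highest and 3 lowest control levels, the 3 highest and lowest log2 fold changes of each comparison, genes past the threshold, and Ifnb1, Ifnar1 and Ifnar2. A further gene that the rule names is not reported here. Rsad2, Cmpk2, Mx1, Ifi44, Ifna4, and further values of Isg15 and Ifit3, were chosen after they were seen. Alternatives were DESeq2 1.42.0, limma-voom (limma 3.58.1), library size alone, no filter, CPM above 1 in at least 2 libraries, a fit of all 9 libraries, the replicate letter used as a block, and each library left out.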

Additional observations from a re-analysis of the deposited data

Results flagged for a closer look

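These 7 genes are listed because their response differed between the knockdowns in the direct test of Gata4 KD against Tbx20 KD (edgeR's quasi-likelihood test, adjusted over 14477 genes). Cxcl10 (log2 fold change -0.91) and Ifnb1 (-1.23) were lower in Gata4 KD in 3 of 3 libraries. The GTPase Tgtp1 (0.60), Il6 (0.42) and Cxcl5 (1.34) were higher in Gata4 KD in 3 of 3 libraries, and Vcam1 (-0.55) was lower in 3 of 3. Kdr, a marker of endothelial cells, was higher in Gata4 KD (0.90, adjusted p 0.0258) at 5.06 to 6.19 CPM against 2.68 to 3.22 CPM in Tbx20 KD. It was the only one called of 7 endothelial markers, of which 4 were above 0 and 3 below, down to -0.58. The calls of Il6 (adjusted p up to 0.180 without Tbx20 KD b), Vcam1 (0.127 without Gata4 KD a), Kdr (0.142 without Tbx20 KD c), Tgtp1 (0.171 without Tbx20 KD c) and Cxcl5 (0.0927 without Tbx20 KD c) were each lost without at least 1 library. Il6 (adjusted p 0.0531) and Tgtp1 (0.056) were not called with library size alone, and Il6 (0.149) was not with all 9 libraries in one fit. None of these differences was tested for a cause.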

How the results depend on the processing

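The number of the 35 genes past the threshold between Gata4 KD and Tbx20 KD, 1 as reported, was 4 in DESeq2 (Cxcl10, Ccl5, Cmpk2 and Isg15), 2 with no filter on low counts (Cxcl10 and Ccl5) and 0 with all 9 libraries in one fit, and it ran from 0 to 2 when each library was left out. In Gata4 KD against control it was 0 as reported and 1 in DESeq2. The cause was not tested. In Tbx20 KD against control it was 0 under every alternative run. The median percentile of the 35 genes in control was 95.9 when only genes that passed the filter were ranked, and their median spread was 0.13 with library size alone and 0.11 to 0.13 when each library was left out.

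Among the named genes some signs turned in fits without 1 library, in which the log2 fold change ran from -0.089 to 0.26 for Ifi27, -0.48 to 0.15 for Ifit2 (-0.28 as reported) and -0.048 to 0.34 for Ifi44 in Gata4 KD against control. In Tbx20 KD against control it was -0.34 to 0.014 for Ifi27, -0.079 to 0.61 for Ifit2, -0.14 to 0.13 for Ifit1, -0.077 to 0.041 for Oas1a, -0.35 to 0.026 for Cxcl5, -0.12 to 0.0031 for Vcam1 and -0.048 to 0.26 for Kdr. Between the knockdowns it was -0.026 to 0.034 for Usp18, which was -0.015 with library size alone. With the other scalings 24 to 27 of the 35 genes were below 0 in Gata4 KD against control, 4 in Tbx20 KD and 31 to 33 between the knockdowns.

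With the replicate letter as a block, Cxcl10 kept its call between the knockdowns (adjusted p 0.0451 in edgeR) and Ifnb1 (0.0676), Tgtp1 (0.0916), Il6 (0.072), Vcam1 (0.0782) and Kdr (0.0574) lost it, as did Tgtp1 against control (0.18), and 0, 0 and 1 of the 35 genes passed in the 3 comparisons. The letters share only a name: deviations of same-lettered libraries correlated at -0.17 to 0.25, 3 of 9 pairs were above 0.1 and 4 of 9 correlated best with their own letter. With 24 to 35 counts of Ifnb1 per Gata4 KD library, counting error limits its fold change more than that of the other genes named.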
